A study of Drosophila melanogaster with 9 samples.

Results

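The enzymes of fatty acid beta-oxidation were followed in whole Drosophila melanogaster through 10 genes taken by name from the authors' annotation sheet: whd, CPT2, Mtpalpha, Thiolase, scu, yip2, CG4598, CG4594, CG4592 and Mfe2. All 10 were among the 14865 genes with a row in the count table, and all 10 were among the 13274 genes tested. Poly(A) RNA came from adults aged 8 days on a diet of yeast and sugar, in 4 libraries of the E78A mutant, named E7818.37 in the authors' sample sheet, and 5 libraries of the control, named w1118. The mutation is in E78A, a nuclear receptor encoded by Eip78C, and the series asks how this receptor bears on the uptake of dietary fat and on body lipids. The labels do not give the sex of the flies, the number of flies in a library, whether libraries came from separate crosses, or which part of Eip78C is altered. The p-values therefore measure the spread between these libraries, which may be technical.

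Library totals ran from 16556267 to 19093675 counts. For 4 of the 9 libraries, mutant replicates 3 and 4 and control replicates 4 and 5, the genotype tag went against the title. The sample sheet disagreed with 0 titles, and the titles were used. Eip78C had 10.7 ± 1.45 CPM (counts per 1000000 counts of a library with its size scaled by edgeR's TMM method) in the mutants (SD, n = 4) and 10.6 ± 2.86 CPM in the controls (SD, n = 5), so whole-gene counts do not check the genotype labels. The 3 yolk protein genes, female markers, summed to between 5.84 and 12.9 CPM in the mutants and between 10.3 and 16.1 CPM in the controls. The 4 accessory gland genes, male markers, summed to between 3341 and 4438 CPM in the mutants and between 2919 and 5457 CPM in the controls. Markers of flight muscle, fat body, midgut, testis and eye were also detected, and 0 of the 26 marker genes of these 7 lists was at 0. Among them the midgut protease gene Jon99Ciii was called lower in the mutants.

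Beta-oxidation cuts fatty acids into acetyl-CoA. A long-chain fatty acid is first joined to coenzyme A, then carried into the mitochondrion as a carnitine ester by the carnitine palmitoyltransferases. There, each round runs through a dehydrogenase, a hydratase, a hydroxyacyl-CoA dehydrogenase and a thiolase, while isomerases move the double bonds of unsaturated chains so that they can enter the cycle. Very long chains are shortened first in peroxisomes by their own set of enzymes. In flies the pathway draws on triacylglyceride stored in the fat body and is raised in fasting.

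Of the 10 genes, CG4594 was lower in E78A mutants at an edgeR adjusted p under 0.05, and 0 were higher. Over all tested genes 0.927% were lower and 0.708% higher, or 1.63% in either direction, and a count of 1 in 10 is too small to read as a share of its own. The other 9 genes did not pass the test. In this fit, which ignores any pairing of libraries, 2 of the 10, CG4594 and CG4592, had an unadjusted p under 0.05, as did 15.1% of all tested genes. The median log2 fold change, mutant over control, was 0.02 over the 10 genes and -0.0024 over all tested genes. It was above 0 for 6 genes and below 0 for 4.

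**Figure D1:**
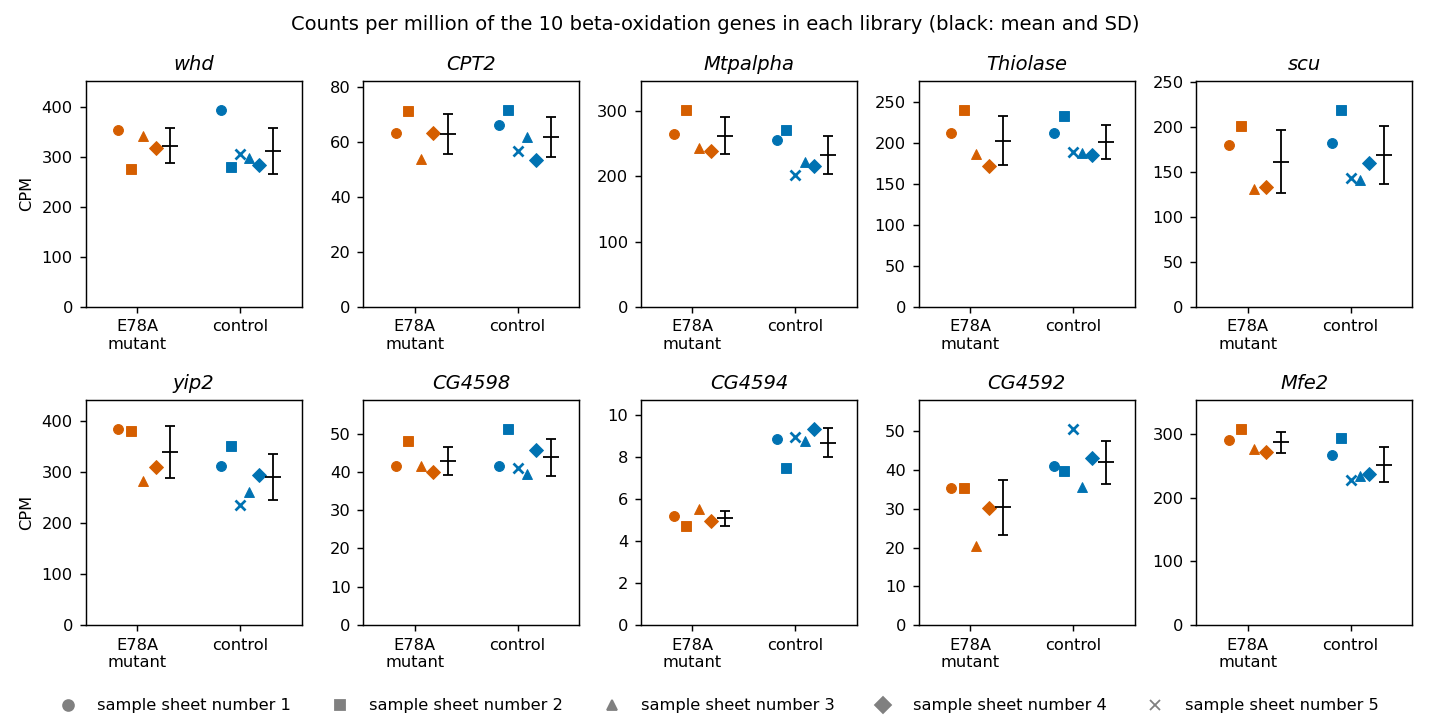
CPM of each gene in each library, with E78A mutants in orange at the left and controls in blue at the right of each panel; marker shapes give the replicate number of the authors' sample sheet, and black bars the mean and SD (n = 4 and 5). CG4594 lies between 4.70 and 5.53 CPM in the mutants and between 7.47 and 9.32 CPM in the controls, and in most other panels circles and squares lie above triangles and diamonds in both genotypes.

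The carnitine shuttle was represented by whd, the fly carnitine palmitoyltransferase 1 that makes the carnitine ester at the outer mitochondrial membrane, and CPT2, which turns it back into acyl-CoA on the inner side. The gene whd (FBgn0261862, chromosome 2R, 10469473 to 10478567, minus strand) had 354, 276, 343 and 317 CPM in mutant replicates 1 to 4 and 393, 280, 307, 297 and 285 CPM in control replicates 1 to 5. Control replicate 1 was the highest of the 9 libraries and mutant replicate 2 the lowest, and the groups overlapped. The log2 fold change of whd was 0.05 (SE 0.11, 95% interval -0.22 to 0.31, edgeR adjusted p = 0.886). CPT2 (FBgn0035383, 3L, 2981022 to 2983551, plus strand) had 63.0, 71.3, 53.7 and 63.0 CPM in the mutants and 66.1, 71.4, 56.6, 61.6 and 53.2 CPM in the controls. The 2 groups covered nearly the same range, and its log2 fold change was 0.02 (SE 0.10, adjusted p = 0.942, 95% interval -0.22 to 0.27). The upper end of the interval of whd is a level 1.24-fold higher in the mutants. At its ends whd overlaps CG11777 by 171 bases and the non-coding CR45134 by 525 bases, both on the other strand, with 1168 and 35 counts over all libraries against 50411 for whd.

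The trifunctional protein of the inner mitochondrial membrane carries out the last steps on long chains. Its alpha subunit, a hydratase and hydroxyacyl-CoA dehydrogenase, is encoded by Mtpalpha (FBgn0028479, 2L, 9573563 to 9576769, minus strand), and its beta subunit, a thiolase, by Thiolase (FBgn0025352, 2R, 23866648 to 23868603, minus strand). Mtpalpha had 265, 302, 244 and 240 CPM in the mutants and 256, 272, 202, 222 and 215 CPM in the controls. Thiolase had 212, 239, 186 and 172 CPM in the mutants and 212, 233, 188, 187 and 185 CPM in the controls. The groups overlapped for both subunits, with a log2 fold change of 0.17 for Mtpalpha (SE 0.10, edgeR adjusted p = 0.473) and 0.01 for Thiolase (SE 0.11, adjusted p = 0.98). Without mutant replicate 2 the value of Mtpalpha was 0.0978.

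Shorter chains are handled by soluble matrix enzymes. The gene scu (FBgn0021765, X, 18091259 to 18092853, plus strand) encodes a hydroxyacyl-CoA dehydrogenase whose human counterpart is also part of mitochondrial RNase P. It had 180, 201, 131 and 133 CPM in the mutants and 182, 218, 144, 141 and 159 CPM in the controls, a wide spread within both genotypes. The highest control library was 1.54 times the lowest, and the log2 fold change was -0.07 (SE 0.16, edgeR adjusted p = 0.881, 95% interval -0.44 to 0.30). The thiolase gene yip2 (FBgn0040064, 2L, 9915253 to 9917220, plus strand) had 385, 381, 282 and 311 CPM in the mutants and 312, 352, 236, 261 and 294 CPM in the controls. Mutant replicates 1 and 2 stood above all controls and mutant replicates 3 and 4 among them, and its log2 fold change was 0.22 (SE 0.13, adjusted p = 0.449, 95% interval -0.08 to 0.52).

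CG4598, CG4594 and CG4592 are predicted enoyl-CoA isomerases, the class that shifts a double bond so that an unsaturated chain can go on through the cycle. CG4598 (FBgn0032160, 2L, 9918618 to 9920120, plus strand) had 41.5, 48.2, 41.5 and 40.1 CPM in the mutants and 41.5, 51.3, 41.0, 39.6 and 45.7 CPM in the controls. Its groups overlapped (log2 fold change -0.03, SE 0.09, edgeR adjusted p = 0.905), and its 95% interval, from -0.25 to 0.19, allows a level at most 1.19-fold lower in the mutants. CG4594 (FBgn0032161, 2L, 9920160 to 9921459, plus strand) had 5.18, 4.70, 5.53 and 4.92 CPM in the mutants and 8.85, 7.47, 8.94, 8.73 and 9.32 CPM in the controls. Every mutant library was below every control library. This held for 2 of the 10 genes, CG4594 and CG4592, and for 3.37% of tested genes, with 2.79% separated in the other direction and 6.16% in either. CG4594 was thus 1.70-fold lower in the mutants, at 5.08 ± 0.36 CPM (SD, n = 4) against 8.66 ± 0.70 CPM in the controls (SD, n = 5), with a 95% interval from 1.41-fold to 2.06-fold.

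The depth behind CG4594 is small, from 79 to 172 counts per library, and by unadjusted p it ranked 70 of 13274 genes. Its log2 fold change was -0.77 (SE 0.12, edgeR adjusted p = 0.00418), and it ranged from -0.82 to -0.73 when each library was left out in turn. With the 5 libraries whose title and tag agree, 2 mutant and 3 control, the fold change was the same but the call ended (-0.77, SE 0.19, edgeR adjusted p = 0.36), in a fit that called 0.157% of tested genes. CG4592 (FBgn0032162, 2L, 9921633 to 9922860, plus strand) had 35.3, 35.4, 20.5 and 30.2 CPM in the mutants and 41.0, 39.7, 50.6, 35.7 and 43.0 CPM in the controls. All mutant libraries were below all controls here too, but by a narrow margin at the border, 35.4 against 35.7 CPM, and mutant replicate 3 stood well below the rest. The log2 fold change of -0.47 (SE 0.15, adjusted p = 0.171) did not pass the test, and it was -0.32 without mutant replicate 3 and -0.39 without control replicate 3.

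The gene Mfe2 (FBgn0030731, X, 16270951 to 16273815, plus strand) encodes the peroxisomal multifunctional enzyme, which joins hydratase and hydroxyacyl-CoA dehydrogenase activity in the shortening of very long chains. It had 291, 308, 277 and 272 CPM in the mutants and 267, 294, 228, 235 and 237 CPM in the controls. Of the controls, replicate 2 alone was above the mutant mean of 287 ± 16.5 CPM (SD, n = 4), and the control mean was 252 ± 27.6 CPM (SD, n = 5). The log2 fold change of 0.19 (SE 0.09, edgeR adjusted p = 0.341, 95% interval -0.02 to 0.39) did not pass the test. Mfe2 lies wholly within the span of kat80 on the other strand, which had 3699 counts over all libraries against 42511 for Mfe2.

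**Figure D2:**
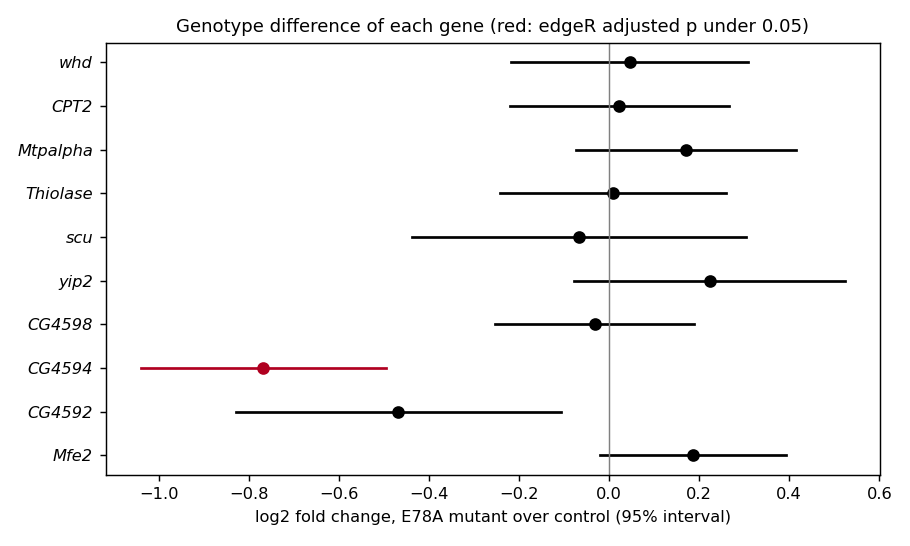
Log2 fold change, E78A mutant over control, of each gene (points) with its 95% interval from 7 residual degrees of freedom (lines); CG4594, in red, is the gene with an edgeR adjusted p under 0.05. In this fit without pairs, only the intervals of CG4594, from -1.04 to -0.50, and CG4592, from -0.83 to -0.11, leave out 0.

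Per kilobase of annotated exon, the genes ran over a wide range of levels. In the mutants yip2 stood highest at 244 ± 36.9 CPM per kb (SD, n = 4), above scu at 142 ± 30.7 with no overlap of libraries. The libraries of scu, Thiolase (127 ± 18.7) and Mfe2 (127 ± 7.28) overlapped each other, as did those of whd (101.5 ± 10.96) and Mtpalpha (91.0 ± 9.77). Thiolase, from 107.8 CPM per kb in its lowest mutant library, also overlapped whd, at up to 111.4. CG4598 (35.2 ± 3.001), CG4592 (27.5 ± 6.34) and CPT2 (26.7 ± 3.05) followed, CG4592 and CPT2 with overlapping libraries, and CG4594 was lowest at 4.61 ± 0.32 CPM per kb. In the controls the order was the same except that CG4592, at 38.0 ± 4.98 CPM per kb (SD, n = 5), and CG4598, at 36.0 ± 3.90, changed places with overlapping libraries. There yip2, at 209 ± 32.5 CPM per kb, overlapped scu, at 149 ± 28.2, and scu, Thiolase, Mfe2 and whd each overlapped the next gene in the order, down to Mtpalpha. CG4594 was also the lowest of the 10 in the controls, at 7.85 ± 0.64 CPM per kb.

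For 8 of the 10 genes the libraries of the genotypes overlapped, and much of their spread lay between libraries of 1 genotype. The 10 genes summed to 1833, 1866, 1583 and 1583 CPM in mutant replicates 1 to 4 and to 1779, 1818, 1462, 1489 and 1528 CPM in control replicates 1 to 5. In the sample sheet the mutant replicates carry the numbers 1 to 4, control replicates 1, 2, 4 and 5 carry 1 to 4, and control replicate 3 carries 5. The libraries numbered 1 and 2 were thus the high ones in both genotypes, at 1779 CPM or more, and those numbered 3 and 4 the low ones, at 1583 CPM or less. Of the 10 genes, 9 and 8 were above their genotype mean in mutant replicates 1 and 2 and 2 in each of mutant replicates 3 and 4, against 8 and 7 in control replicates 1 and 2 and 2, 2 and 4 in control replicates 3, 4 and 5.

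As deviations from the genotype means over the 9 libraries, Mfe2 and Mtpalpha went together most closely (Pearson's r = 0.96, Spearman's rho = 0.88), followed by Thiolase and scu (0.95 and 0.92) and yip2 and scu (0.94 and 0.87). These are descriptions over libraries that share a depth, a scaling and a sheet number. CG4594 went against most of the others, most of all CPT2 (r = -0.88, rho = -0.88), and its r was positive with whd alone (r = 0.47, rho = 0.55). It had only 79 to 172 counts per library, and its SD was 7.0% of its mean in the mutants and 8.1% in the controls. How much of these small deviations is counting noise was not tested. The carnitine gene whd had an r from -0.59 with CG4598 to -0.05 with Mfe2 against the 8 other genes. The 4 fat body markers, summed, were also higher in the libraries numbered 1 and 2 within each genotype. They came to 7547 and 7754 CPM in mutant replicates 1 and 2 and to 6151 and 6587 CPM in mutant replicates 3 and 4, against 9356 and 8556 CPM in control replicates 1 and 2 and 6375, 6453 and 7857 CPM in control replicates 3, 4 and 5. The lipase gene bmm, 1 of the 4, adds little to the sum and did not follow it throughout. It was high in replicate 1 of both genotypes (208 CPM in the mutant, 212 CPM in the control). In mutant replicate 2 it had 117 CPM against 166 CPM in mutant replicate 4. In control replicate 2 it had 107 CPM against 119 and 124 CPM in control replicates 4 and 5. The 4 flight muscle markers moved less, from 2826 to 3145 CPM in the mutants and from 2751 to 3286 CPM in the controls, with the replicate numbered 2 the highest in both. Their part in the shared movement was not tested, and in whole flies fewer cells of a type and less RNA per cell cannot be told apart.

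With mutant and control set side by side within a sheet number, some of the small differences came out steadier. The pairs numbered 3 and 4 hold the 4 libraries whose genotype tag went against the title. By the tags, every sign in those pairs would be reversed. By title, the sum was higher in the mutant library of all 4 pairs. It was 1833 against 1779, 1866 against 1818, 1583 against 1489 and 1583 against 1528 CPM, log2 ratios from 0.04 to 0.09. Mfe2 (log2 ratios 0.07 to 0.24), Mtpalpha (0.05 to 0.15) and yip2 (0.08 to 0.31) had the higher value in every mutant library of the 4 pairs, as did 12.6% of tested genes. CG4594 (-0.92 to -0.66), CG4592 (-0.80 to -0.16) and scu (-0.26 to -0.01) had the lower value in each, as did 13% of tested genes. The remaining genes were split. CG4598, Thiolase and whd were higher in the mutant library of 2 pairs and lower in 2, and CPT2 was higher in 1 and lower in 3. With the pairs as a block in edgeR, CG4594 was still the 1 gene of the 10 that was called (-0.75, adjusted p = 0.0107), in a fit that called 3.89% of tested genes, and CG4592 came to -0.42 (adjusted p = 0.0562). In this fit unadjusted p was also under 0.05 for CG4592 (0.0024), Mfe2 (0.016), yip2 (0.026) and Mtpalpha (0.039), and it was 0.051 for scu. The share of all tested genes under 0.05 in this fit is not given here. Mfe2 came to 0.16 (SE 0.05, adjusted p = 0.16), yip2 to 0.15 (SE 0.06, adjusted p = 0.204), Mtpalpha to 0.12 (SE 0.05, adjusted p = 0.249) and scu to -0.13 (SE 0.06, adjusted p = 0.281). Each had a smaller SE than without pairs.

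**Figure D3:**
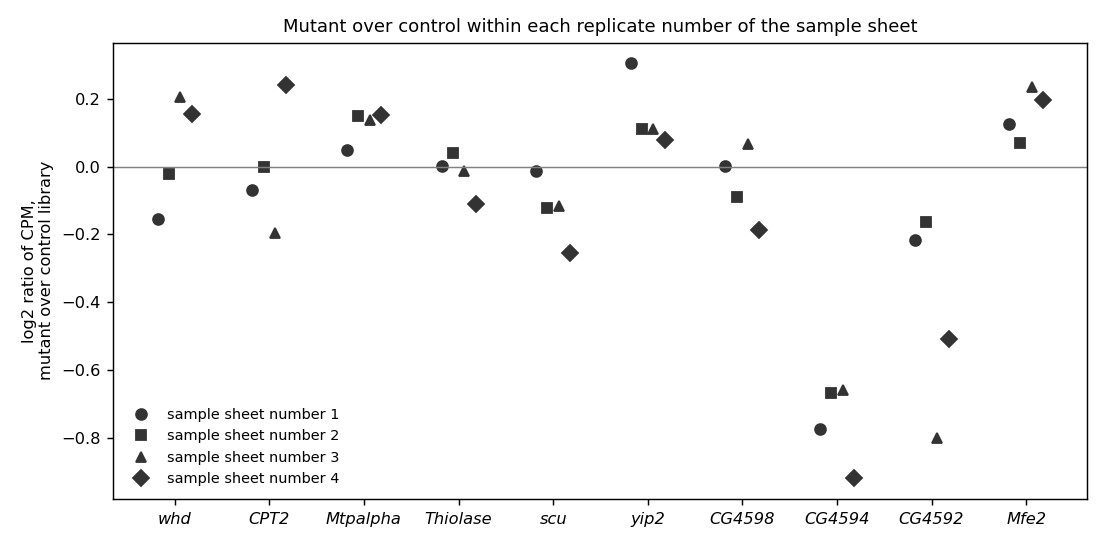
Log2 ratio of CPM, E78A mutant over control library, within each of the 4 replicate numbers of the authors' sample sheet (marker shapes), for each gene on the x axis. All 4 points are above 0 for Mtpalpha, yip2 and Mfe2 and below 0 for scu, CG4594 and CG4592, and the points of CG4594, from -0.92 to -0.66, are the lowest set.

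The gene that was called sits in a row of beta-oxidation genes. On 2L, yip2, CG4598, CG4594 and CG4592 lie on the plus strand within 7608 bases, in coordinates of the annotation sheet (genome builds BDGP6 and dm6, per the submitters' processing notes). Between CG4598 and CG4594 there are 39 bases and between CG4594 and CG4592 173 bases, while CG5885, on the minus strand, lies between yip2 and CG4598. Mtpalpha is 338483 bases to the left of yip2. CG4598 and CG4594 have 4 exon blocks each and CG4592 3, with 1216, 1103 and 1105 bases of annotated exon. The log2 fold changes along the row, from left to right, were 0.22 for yip2, -0.03 for CG4598, -0.77 for CG4594 and -0.47 for CG4592.

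Of 11 other tested genes within 20 kb of the 3 isomerase genes, 0 were called in edgeR, which called 1.63% of all tested genes. The same held with DESeq2 and in each other alternative run, and the lowest edgeR adjusted p was 0.491. At that share, 11 genes are too few to read 0 calls as a result about this stretch. CG5885, on the left of CG4598, had 84.7 ± 7.32 CPM in the mutants and 85.4 ± 10.97 CPM in the controls (log2 fold change -0.01, SE 0.10). TbCMF46, on the right, had 6.99 ± 1.08 CPM in the mutants and 6.92 ± 2.11 CPM in the controls (0.01, SE 0.21). TbCMF46 overlaps the last 124 bases of CG4592 on the other strand, with 1102 counts over all libraries against 5871 for CG4592. The library kit keeps strand, but the labels do not say whether the counting used it, so reads from overlapping genes, here and at whd and Mfe2, may be mixed.

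Ratios of counts between neighbours do not depend on the scaling of libraries. The count of CG4594 was 0.125, 0.0974, 0.133 and 0.123 of that of CG4598 in mutant replicates 1 to 4, and 0.213, 0.146, 0.218, 0.221 and 0.204 in control replicates 1 to 5, with no overlap. The mean log2 ratio differed by -0.74, mutant minus control, and by -0.85 to -0.64 with each library left out in turn. CG4592 over CG4598 was 0.849, 0.735, 0.494 and 0.753 in the mutants and 0.988, 0.775, 1.23, 0.902 and 0.941 in the controls, which overlapped at control replicate 2. Its log2 difference was -0.46, and -0.30 without mutant replicate 3. For CG4594 over CG4592 the log2 difference was -0.27, and it was -0.49 without mutant replicate 3 and -0.15 without mutant replicate 2. These ratios were chosen after the values of the genes were seen, so they are given as a description with no test, and they are no support beyond the fold changes of the same genes.

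**Figure D4:**
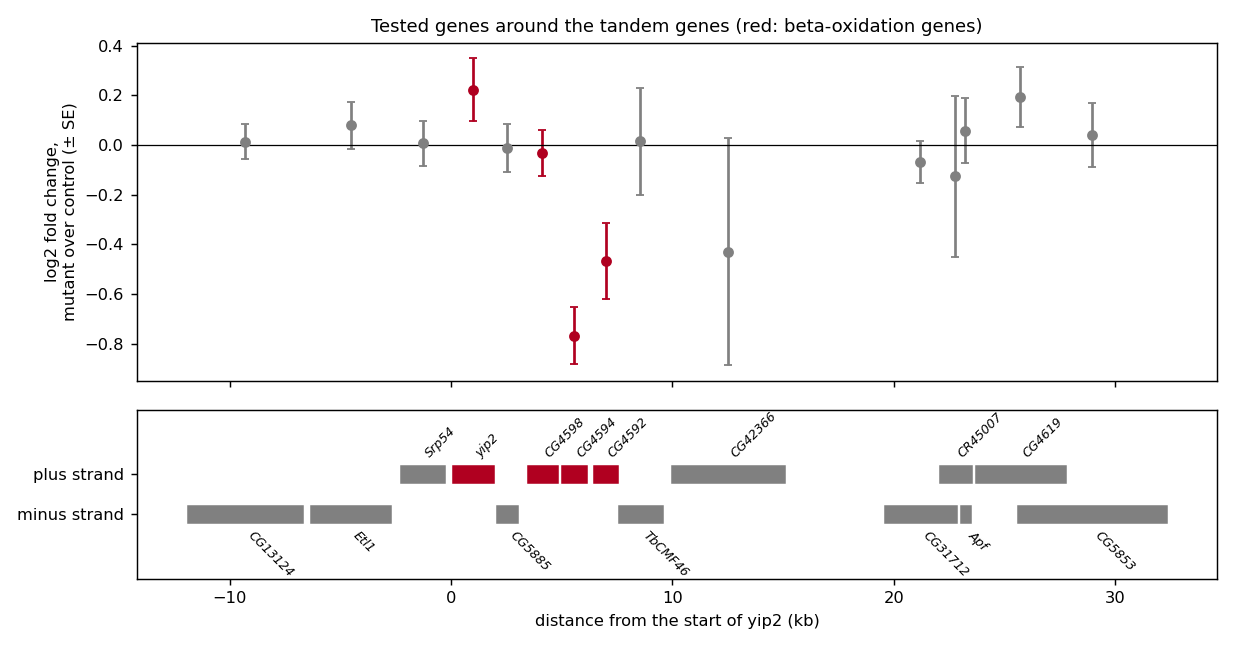
Top, log2 fold change, E78A mutant over control, with its SE, of each tested gene around the row of tandem genes; bottom, the position of each gene on its strand in kb from the start of yip2, with the 4 beta-oxidation genes in red and other genes in grey. CG4594 (-0.77) and CG4592 (-0.47) lie low between CG4598 (-0.03) and TbCMF46 (0.01), and the wide bar at -0.43 is CG42366, a gene with 0.78 CPM in the mutants and 1.05 CPM in the controls.

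The rest of the pathway was read from 38 other genes in 7 lists by role, all of them tested. None was called over all genes in edgeR, in either direction, and 21 log2 fold changes were above 0 and 17 below, with a median of 0.02 against -0.0024 over all tested genes. With DESeq2, which called 3.44% of the genes it tested, 0 of the 38 were called. In edgeR 0 had an unadjusted p under 0.05, against 15.1% of all tested genes. This held without pairs only. With the pairs as a block in edgeR, unadjusted p was under 0.05 for CG9914 (0.0018), hll (0.0061), Etf-QO (0.0074), CG12262 (0.019), colt (0.030) and CG2316 (0.035). Of these colt was higher in the mutants and the rest lower, and hll is a gene of low counts. The share of all tested genes under that unadjusted p in the block fit is not given here. At adjusted p under 0.05 the block fit called 3.89% of tested genes, against 1.63% without pairs. The list is therefore not read as a result about these genes. The 5 acyl-CoA synthetases, which activate fatty acids, had a median of -0.10, and Acsl, for long chains, had 962 ± 186 CPM in the mutants and 828 ± 87.8 CPM in the controls (0.22, SE 0.12, adjusted p = 0.452). The 5 other genes of the carnitine shuttle had a median of -0.11. Among them CG5122, of the carnitine acyltransferase family, had the smallest p, with 162 ± 7.11 CPM in the mutants and 186 ± 24.2 CPM in the controls (-0.20, SE 0.09, adjusted p = 0.345).

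The 7 acyl-CoA dehydrogenases, which open each round, had a median of 0.03. CG12262, now named Mcad, the medium-chain enzyme, had 296 ± 33.7 CPM in the mutants and 323 ± 31.8 CPM in the controls (log2 fold change -0.13, SE 0.10, edgeR adjusted p = 0.579). The 5 other hydratases and isomerases had a median of 0.04 and a range from -0.04 to 0.16, the highest being CG8778. In this list CG13890, now named Dci and another isomerase, had 20.6 ± 2.53 CPM in the mutants and 20.1 ± 2.80 CPM in the controls (0.04), named here after its values were seen. The 5 hydroxyacyl-CoA dehydrogenases and thiolases had a median of 0.03, and CG10131, now named Had2, had the smallest p of them (0.26, SE 0.14, adjusted p = 0.423). CG9914, now named Had1, had 322 ± 174 CPM in the mutants and 392 ± 132 CPM in the controls (-0.28, SE 0.34, adjusted p = 0.741). With the pairs as a block it was called lower (-0.52, SE 0.12, edgeR adjusted p = 0.0488), the 1 gene of the 38 that this fit called.

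The 3 electron transfer flavoprotein genes, which pass electrons from the dehydrogenases to the respiratory chain, had a median of 0.07, and Etf-QO had -0.10 (SE 0.13, edgeR adjusted p = 0.742). Among the 8 peroxisomal oxidases and transporters the median was 0.01. CG2316, also named ABCD, a transporter of very long chains into peroxisomes, had 187 ± 15.2 CPM in the mutants and 206 ± 5.24 CPM in the controls (-0.14, SE 0.07, adjusted p = 0.397). Of the 6 regulators, 0 were called. Hnf4, a nuclear receptor that switches on beta-oxidation genes in fasting flies, had 158 ± 6.38 CPM in the mutants and 141 ± 12.8 CPM in the controls (0.17, SE 0.08, adjusted p = 0.336). ERR, a nuclear receptor of carbohydrate metabolism, had 0.16, the coactivator gene srl 0.02, the acetyl-CoA carboxylase gene ACC 0.14, the lipase gene bmm, also 1 of the 4 fat body markers, 0.23 and AkhR, the adipokinetic hormone receptor gene, -0.29, each with an adjusted p of 0.375 or more. These values are without pairs. With the pairs as a block in edgeR, AkhR had the smallest adjusted p of the regulators (-0.25, SE 0.07, adjusted p = 0.0865). Hnf4 came to 0.12 there (SE 0.05, adjusted p = 0.25), and neither was called.

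**Figure D5:**
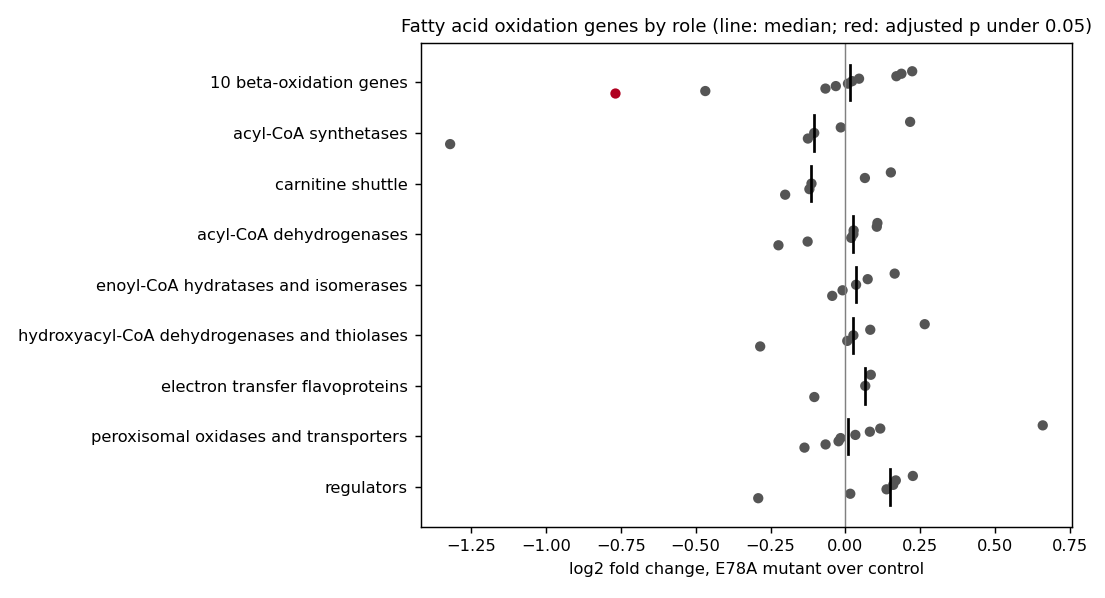
Log2 fold change, E78A mutant over control, of the 10 beta-oxidation genes (top row) and of the other fatty acid oxidation genes and regulators by role (1 point a gene, black lines the median of each row); red marks an edgeR adjusted p under 0.05. CG4594, at -0.77, is the red point, and the 2 points farthest out are genes of low counts, hll at -1.32 and CG4586 at 0.66.

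Outside the pathway, the 5 genes whose library-to-library movement was most like the mean of the 10 were CG7322 (Pearson's r = 0.9987, Spearman's rho = 0.97 over 9 libraries), Gs1l (0.99 and 1), CG14591 (0.99 and 0.98), CG9331 (0.99 and 0.88) and CG2862 (0.99 and 0.98). They are the closest of 13264 genes, so they are high by the choice alone. None was called between the genotypes in edgeR, which called 1.63% of all tested genes, and their log2 fold changes ran from -0.01 for CG7322 to 0.14 for CG9331. CG7322 had 75.2 ± 35.1 CPM in the mutants and 75.6 ± 32.7 CPM in the controls, a spread within each genotype far above the difference between them.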

How the data were processed

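Poly(A) RNA of whole flies was sequenced from stranded libraries in paired ends, per the labels' protocols. Per the submitters' processing notes, which give no roles, the tools were featureCounts 1.6.3, STAR 2.6.1b, cutadapt 1.16 and DESeq2 (1.22.2 and 1.20.0), with dm6 and BDGP6 as builds. The authors deposited raw counts per gene, whole numbers, which were used here. The log2 values and p-values of the authors' deposited comparison were read only to set beside the new fit, as were the gene coordinates of the annotation sheet. Exon lengths came from the Ensembl 115 annotation of BDGP6, whose coordinates equal the sheet's for all 10 genes.

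For 4 mutant and 5 control libraries, grouped by title, the quasi-likelihood test of edgeR 4.0.16 (glmQLFit, glmQLFTest; R 4.3.3) was run after filterByExpr (minimum count 10) and TMM scaling, and p-values were adjusted over 13274 genes by the Benjamini-Hochberg method at 0.05. CPM used TMM-scaled sizes, log-CPM a prior count of 2, and count ratios a pseudocount of 0.5. Each SE was the size of the log2 fold change over the square root of the F statistic of the edgeR test. The intervals came from the fit without pairs and used 7 residual degrees of freedom. Like all values, they cover no error of library preparation beyond the spread between libraries. The edgeR p-values use more degrees of freedom, so the intervals are wider than those p-values imply. Deviations of libraries with the same sample sheet number correlated at 0.207, 0.214, 0.210 and 0.277 across genes, so the numbers were taken to pair 4 mutant with 4 control libraries. Alternatives were DESeq2 1.42.0, other scalings and filters, each library left out, the 5 libraries with agreeing labels and the replicate block. In simulated data on this comparison over 13274 genes, 58% of genes changed 1.5-fold and 88% of genes changed 2-fold were recovered. Changes were put only into genes above a floor of mean CPM, so these shares do not cover genes of the lowest counts. The simulated counts used the spread estimated from these data, without pairs.

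The 80 list entries were matched by symbol (74) or other name (6). The genes named are the 10 and every called gene of the role lists or among the neighbours. In each role list the gene with the smallest p is named. All regulators, the gene on each side of the row and the 5 genes nearest in pattern are named too. CG9914, CG13890, hll, colt, CG4586, CG42366 and Jon99Ciii were picked with their values in view. The 10 genes and the lists were chosen with earlier results of these data known.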

Additional observations from a re-analysis of the deposited data

Results flagged for a closer look

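In whd, control replicate 1 held 393 CPM, far from the other 4 control libraries, which lay between 280 and 307 CPM, and its gap to the next was 0.762 of the range of the group. The 10 genes and their sum were looked at in both genotypes, 22 groups in all, and chance alone gives about 1 such library in 20 groups. Without that library the log2 fold change of whd was 0.14 (edgeR adjusted p = 0.522), against 0.05 with it.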

How the results depend on the processing

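The call of CG4594 held in 15 of 16 alternatives, with adjusted p from 2.8e-05 to 0.36. With the 5 libraries whose title and tag agree it was -0.77 (adjusted p = 0.36), and 0 of the 10 genes was called lower there, in a fit that called 21 genes in all. With the replicate block 1 of the 38 other fatty acid oxidation genes was lower, CG9914, against 0 without it, the cause of which was not tested, and the block changed no other call among the 48 genes. CG4592 missed the threshold in all 16 (adjusted p from 0.0562 to 0.888), and yip2, Mfe2 and Mtpalpha kept a positive value, without a call, in all 16. Values near 0 changed sign without any call. Upper-quartile factors gave Thiolase -0.0036, the 5 libraries gave CG4598 0.0121, whd -0.0506 and scu 0.0746, and the block gave Thiolase -0.0193 and CPT2 -0.0070. Leaving out 1 library gave Thiolase from -0.0819 to 0.0782, whd from -0.0011 to 0.143, CG4598 from -0.0930 to 0.0310, scu from -0.189 to 0.0428 and CPT2 from -0.0437 to 0.0903. The median of the 10 genes ran from -0.06 to 0.07 over all 16, and the summed CPM, mutant minus control, was 101 and ran from 51.2 to 152 without 1 library. The authors' deposited table gave CG4594 -0.73 and CG4592 -0.44 (adjusted p = 0.0702). Low counts limit CG4594, at 79 counts in its lowest library.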
